A study of Homo sapiens with 6 samples.

Results

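Tropomyosin 4 (TPM4), calponin 2 (CNN2), caldesmon 1 (CALD1), transgelin (TAGLN) and the small GTPase RHOB are 5 genes whose proteins bind actin filaments or control their contraction. They were taken by gene symbol from the deposited tables, each symbol matching 1 row, and make up 5 of the 2128 genes listed there. RNA-seq was done on SNU668, an established human line from a signet-ring cell carcinoma of the stomach, in 3 libraries titled shControl and 3 titled shGPER. The shControl libraries carry the genotype label WT, so it is uncertain whether these cells held a control hairpin. The shGPER libraries are labelled as a knockdown of GPER, the G protein-coupled estrogen receptor, whose gene is GPER1. The sources used here give neither the number of hairpins nor whether each library is a culture of its own, so the tests cover the spread among these 6 libraries, which may be technical.

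Actin filaments are decorated by tropomyosin, a coiled-coil dimer that lies along the filament and sets which other proteins can bind there. Caldesmon binds actin, tropomyosin, myosin and calmodulin and inhibits the myosin ATPase. Calponin and transgelin are related small proteins that bind actin filaments. RHOB is a membrane-bound small GTPase, which in its active form drives filament assembly and myosin contraction through effector kinases and formins. Several genes of this kind are known targets of serum response factor (SRF), which binds a short promoter sequence called the CArG box.

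Levels are given as TPM, the share of a gene among the transcripts of a library after division by transcript length, so levels can be compared between genes. The listed genes summed to 4.66 to 6.42% of the fixed total of each library, read depth cannot be recovered, and whether a level reflects more expressing cells or more RNA per cell cannot be told apart. Tests were made with limma on log2(TPM + 1) over the 1651 genes that reached 1 TPM in at least 3 libraries. Nearly every gene of this table separated the groups: 98.4% of the tested genes were called at an adjusted p under 0.05, 47.8% higher and 50.6% lower in shGPER, and for 97.4% the values of the groups did not overlap. A call is therefore not a mark of these 5 genes. The sources used here do not give the rule by which the listed genes were chosen. Shares, ranks and adjusted p-values thus apply to this table and not to all genes of the cells. What can be read is their direction, their size and their relation to each other. The targeted gene, GPER1, measured 11.04, 11.00 and 10.41 TPM in shControl and 1.83, 2.41 and 2.47 TPM in shGPER, 20.7% of the control mean.

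The promoters of the genes are shown first, since SRF is a known regulator of this family and the letters can be set beside the levels. RefSeq start sites (GRCh38.p14) were found for 4 of the 5 genes, TAGLN being the other one, with 4 windows for CALD1, 3 for TPM4 and 1 each for CNN2 and RHOB. The 250 bases before each start were searched on both strands for the CArG box (CC, then 6 bases that are each A or T, then GG, the same pattern on either strand) and for CCAAT or its complement ATTGG. The search allows matches of the 2 motifs to overlap. A CArG box was found in 1 TPM4 window and in the CNN2 window. No such letters stood in the RHOB window, in the 4 CALD1 windows or in the other TPM4 windows. Of all 35116 RefSeq windows 1.16% held a CArG box, and of 27305 genes 1.44% had it in at least 1 window. The family was chosen for the search as known SRF targets, so these shares are no test. The TPM4 window lies at chr19:16067288-16067537 and the CNN2 window at chr19:1026358-1026607, both on the plus strand, with the CArG box in capitals. The TPM4 box begins 173 bases before the start and the CNN2 box 89 bases before it. The RHOB window, at chr2:20446824-20447073 on the plus strand, is shown with its CCAAT matches in capitals, which begin 115 and 66 bases before the start. CCAAT or its complement was found in 32.0% of all windows, so it is common. The CNN2 window also holds 1 CCAAT, 63 bases before the start and clear of its CArG box. Of the CALD1 windows 1 holds matches 222 and 66 bases before its start and another 1 match 139 bases before. A match describes the letters, not a bound site.
TPM4: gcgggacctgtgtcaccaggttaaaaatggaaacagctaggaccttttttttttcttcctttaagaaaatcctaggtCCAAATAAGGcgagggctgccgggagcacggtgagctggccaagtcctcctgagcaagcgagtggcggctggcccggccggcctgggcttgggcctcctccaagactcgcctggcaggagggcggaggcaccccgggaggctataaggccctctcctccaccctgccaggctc
CNN2: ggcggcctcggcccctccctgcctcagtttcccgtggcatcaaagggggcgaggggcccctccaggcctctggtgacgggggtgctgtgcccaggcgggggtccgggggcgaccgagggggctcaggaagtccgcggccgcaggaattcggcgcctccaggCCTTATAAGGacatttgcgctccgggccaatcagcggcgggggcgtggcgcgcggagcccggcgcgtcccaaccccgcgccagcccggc
RHOB: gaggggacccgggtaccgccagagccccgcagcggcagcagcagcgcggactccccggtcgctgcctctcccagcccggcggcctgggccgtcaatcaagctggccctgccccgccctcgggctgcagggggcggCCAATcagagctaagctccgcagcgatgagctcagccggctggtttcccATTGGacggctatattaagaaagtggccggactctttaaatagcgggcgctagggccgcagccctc

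TPM4 had the largest rise of the 5 genes. TPM4 (ENSG00000167460; chromosome 19, 16067021 to 16103005, plus strand, GRCh38) encodes a non-muscle tropomyosin of stress fibres and the cell cortex. Its level in shControl was 39.21, 35.72 and 36.08 TPM, and in shGPER 168.23, 176.67 and 182.26 TPM. The lowest shGPER library thus lay far above the highest shControl library, and within each group the libraries stood close together. Mean levels were 37.0 ± 1.92 TPM in shControl and 176 ± 7.06 TPM in shGPER (SD, n = 3 each), 4.75 times as high in shGPER. Its log2 fold change, taken throughout on log2(TPM + 1), was 2.22 (SE 0.06; limma, adjusted p = 9.73e-08), the rise ranked 18 among the 1651 tested genes. By level, TPM4 ranked 245 of the tested genes in shControl and 36 in shGPER. The annotation gives TPM4 24 transcripts, and a level per gene does not tell them apart. It shares 25.5% of its 31-base words with other annotated transcripts, mostly processed pseudogenes and an opposite-strand transcript, so some of its reads are of uncertain origin.

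**Figure D1:**
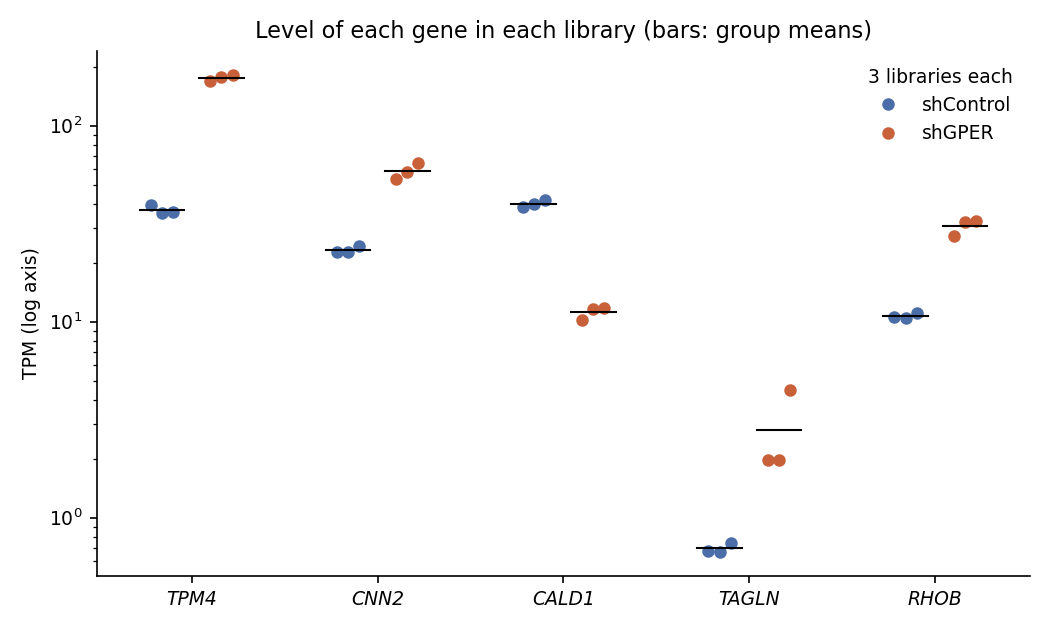
TPM of each gene on a log axis, with 1 point per library (3 shControl in blue, 3 shGPER in orange) and bars at the group means. TPM4, CNN2, TAGLN and RHOB are higher in every shGPER library, CALD1 is lower in each, and TAGLN in shGPER is spread from 1.98 to 4.47 TPM.

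Of the other tropomyosin genes TPM2 was in the table, and TPM1 and TPM3 were not analysed here. TPM2, which encodes beta-tropomyosin of muscle and of some non-muscle cells, was at 1.14 to 1.19 TPM in shControl and at 3.88, 5.21 and 3.14 TPM in shGPER. Its log2 fold change was 1.21 (SE 0.15; limma, adjusted p = 7.66e-05). With the GC trend, described below, removed and a replicate block added it was 0.433 and lost its call (limma, adjusted p = 0.0522). Even after that rise, TPM2 at a mean of 4.08 TPM was a small part of the listed tropomyosin mRNA beside TPM4 at 176 TPM.

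CNN2 and TAGLN belong to 1 protein family and both rose, from very different levels. CNN2 (ENSG00000064666; chromosome 19, 1026581 to 1039068, plus strand) encodes a calponin that is also found outside smooth muscle. Its shControl values were 22.72, 22.61 and 24.30 TPM, and its shGPER values 53.76, 57.81 and 64.28 TPM. The groups did not overlap, and the shGPER libraries were spread more widely than the controls. Mean levels were 23.2 ± 0.946 TPM in shControl and 58.6 ± 5.31 TPM in shGPER (SD, n = 3 each), a 2.53-fold difference. The log2 fold change was 1.30 (SE 0.08; limma, adjusted p = 1.17e-06). CNN2 shares 25.4% of its 31-base words with other annotated transcripts, and AC011558.1, an unclassified gene on the opposite strand, overlaps its 3′ end.

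TAGLN (ENSG00000149591; chromosome 11, 117199321 to 117204782, plus strand) encodes SM22, an abundant marker of smooth muscle and myofibroblasts. In these cells it was barely present. The shControl libraries had 0.68, 0.67 and 0.74 TPM and the shGPER libraries 1.98, 1.98 and 4.47 TPM. One library, shGPER replicate 3, was more than 2 times as high as the other shGPER libraries, and the group mean of 2.81 ± 1.44 TPM (SD, n = 3) rests on it. The log2 fold change was 1.10 (SE 0.23; limma, adjusted p = 0.0015), and without that library it was 0.81 (limma, adjusted p = 0.000279). TAGLN was under 1 TPM in every shControl library, so it was tested only because it was higher in shGPER and its direction was set by the filter. Its 3′ end overlaps PCSK7 on the opposite strand, which accounts for the 10.3% of its words that it shares. The kit keeps the strand, but the sources used here do not give whether counting used it. CNN1, CNN3, TAGLN2 and TAGLN3 were not analysed here.

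CALD1 was the member that fell. CALD1 (ENSG00000122786; chromosome 7, 134744252 to 134970728, plus strand) encodes caldesmon in a long smooth-muscle form and a shorter form of other cells, made by alternative splicing, and the level per gene does not separate them. The control cells gave 38.69, 39.66 and 41.56 TPM, and the knockdown cells 10.22, 11.61 and 11.75 TPM. Every shGPER library was below every shControl library, with a narrow spread on both sides. The mean was 40.0 ± 1.46 TPM in shControl and 11.2 ± 0.846 TPM in shGPER (SD, n = 3 each), 28.0% of the control mean. The log2 fold change was -1.75 (SE 0.08; limma, adjusted p = 2.97e-07), the fall ranked 54 among the tested genes. In rank of level it went from 223 to 623. Its transcripts share 0.19% of their words with other genes.

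RHOB (ENSG00000143878; chromosome 2, 20447074 to 20449445, plus strand) has 1 annotated transcript of 2372 bases, so its level is not a mixture of isoforms. RHOB measured 10.60, 10.42 and 11.04 TPM in shControl against 27.34, 32.17 and 32.60 TPM in shGPER. The groups did not overlap, and shGPER replicate 1 was the lowest of its group. Mean levels were 10.7 ± 0.319 TPM in shControl and 30.7 ± 2.92 TPM in shGPER (SD, n = 3 each), a 2.87-fold difference. The log2 fold change was 1.44 (SE 0.08; limma, adjusted p = 1.12e-06). RND3, an atypical small GTPase that opposes the RHOA kinase ROCK1, moved the other way, from 143.70, 148.68 and 155.01 TPM in shControl to 56.05, 60.09 and 58.54 TPM in shGPER. Its log2 fold change was -1.34 (SE 0.06; adjusted p = 2.68e-07 in limma), and its smallest value under the alternatives was -0.451, with the GC trend of the longest transcript removed. RND2, a relative of RND3, was at 0.257 and 1.18 TPM and below the level for testing, and RHOA, RHOC, RAC1 and CDC42 were not analysed here.

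In all, 4 of the 5 genes rose and CALD1 fell, beside 47.8% called higher and 50.6% called lower among all tested genes. The median change of the 5 genes was 1.30 on the log2 scale, beside -0.49 over all tested genes. The members were picked with results known, and TAGLN could pass in 1 direction only, so these counts describe the genes and carry no test. Among genes called higher in the table the median was 1.13, which CNN2 and TAGLN were near and TPM4 exceeded. Among genes called lower it was -0.99, and CALD1 fell further than that. Centring each library on its median moved all log2 fold changes by 0.15 and turned none of the 5.

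The ratios of tropomyosin and calponin to caldesmon were then taken within each library, where the scaling of TPM cancels out. Tropomyosin 4 and caldesmon mRNA were about equal in shControl, with a TPM4 to CALD1 ratio of 1.01, 0.901 and 0.868. In shGPER the ratio was 16.5, 15.2 and 15.5. It went from 0.927 ± 0.0763 to 15.7 ± 0.65 (SD, n = 3 each), a log2 difference of 4.09 (SE 0.08) or 17.0-fold. The balance of the 2 mRNAs thus passed from near 1 to 1 to a large excess of tropomyosin in each shGPER library.

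For CNN2 the ratio to CALD1 was 0.587, 0.570 and 0.585 in shControl and 5.26, 4.98 and 5.47 in shGPER. Calponin mRNA was the lesser of the pair in every control library and the greater in every shGPER library. The log2 difference was 3.17 (SE 0.04), or 9.01-fold. The RHOB to CALD1 ratio went from 0.267 ± 0.00583 to 2.74 ± 0.0563 (SD, n = 3 each), 10.2-fold or 3.36 on the log2 scale (1.94 with the GC trend removed), and was the tightest of the ratios in shGPER relative to its mean. The TAGLN to CALD1 ratio was 0.0169 to 0.0178 in shControl and 0.194, 0.171 and 0.380 in shGPER. Its log2 difference was 3.74, and 1.50 with the GC trend removed. TAGLN was the lesser of the pair in every library.

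The genes that rose did not rise alike. The TPM4 to CNN2 ratio was 1.73, 1.58 and 1.48 in shControl and 3.13, 3.06 and 2.84 in shGPER, a log2 difference of 0.92 (SE 0.08) or 1.89-fold, which became 2.20 on the log2 scale with the GC trend removed. For each of these 5 ratios the groups did not overlap. An exact permutation test (two-sided) gave p = 0.1 (0.1 after adjustment over the 5 ratios), which is its floor with 3 libraries per group. In the ratios to CALD1, a gene that rose without overlap is divided by one that fell without overlap. Their separation and their p were thus fixed beforehand, and the direction of TAGLN was set by the filter. The members were picked with results known, and how often other gene pairs separate was not tested. The ratios therefore give sizes, and the p-values do not mark these pairs.

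**Figure D2:**
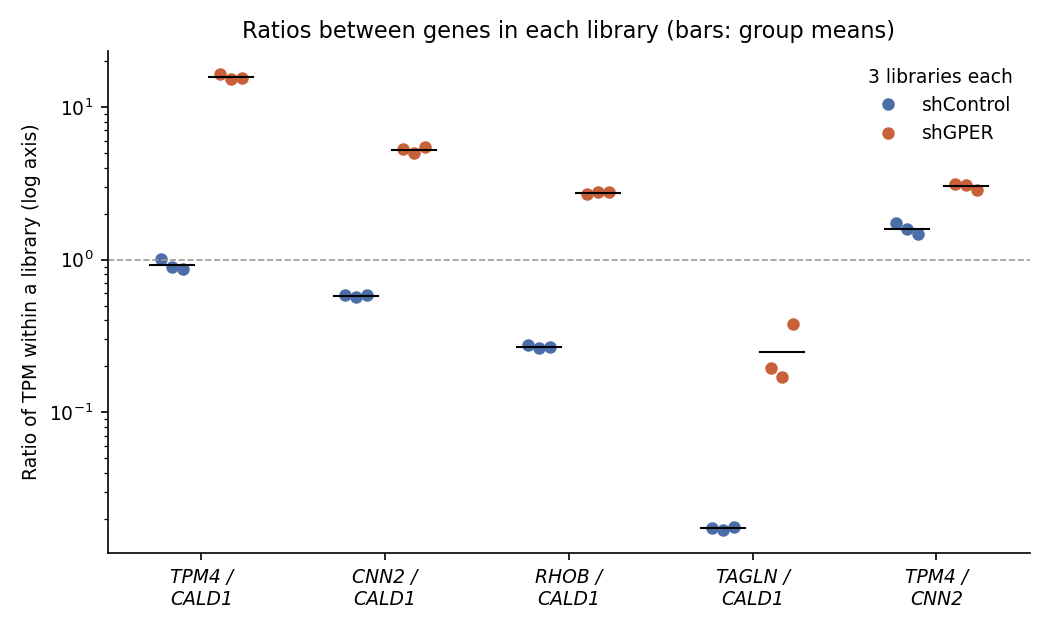
Ratio of the TPM of a pair of genes within each library on a log axis (3 shControl in blue, 3 shGPER in orange; bars are group means, the dashed line marks equal levels). TPM4 to CALD1 moves from 0.927 to 15.7 and CNN2 to CALD1 from 0.581 to 5.24, both crossing the line of equal levels, while TPM4 to CNN2 moves from 1.60 to 3.01.

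Seen as shares of their summed level, the 5 genes changed places. Their sum was 111.6 ± 2.34 TPM in shControl and 279.0 ± 16.9 TPM in shGPER (SD, n = 3 each). CALD1 held 35.8 ± 1.09% of it in shControl and 4.01 ± 0.121% in shGPER, while TPM4 held 33.2 ± 1.70% and 63.0 ± 1.31%. The share of CNN2 was 20.8 ± 0.536% in shControl and 21.0 ± 0.677% in shGPER, a difference smaller than the spread between libraries. RHOB went from 9.58 to 11.0%, and TAGLN stayed under 2% in every library. In order of level, CALD1 and TPM4 led in shControl, and the 2 were close (40.0 and 37.0 TPM, with shControl replicate 1 having TPM4 slightly above CALD1). In shGPER the order was TPM4, CNN2, RHOB, CALD1 and TAGLN, and no neighbours in it overlapped in any library.

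Across the table the direction of change went with the GC content of the transcripts, and each gene was set beside genes of like content. GC content is the median over the annotated transcripts of a gene, and the tested genes with a value (1626) were split into 10 equal bins. TPM4, at 47.9% GC, was in a bin (47.9 to 51.2%) where 47 of 162 genes were called higher and the median log2 fold change was -0.83. Its rise ranked 1 among them. CALD1, at 46.7%, was in the neighbouring bin (44.8 to 47.9%), where 25.2% were called higher and the median was -0.88. By their longest transcripts TPM4 has 48.5% GC and CALD1 41.6%, and the transcripts of CALD1 range from 31.6 to 53.5%, so its GC content depends on the isoform.

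The other genes lay on the GC-rich side. CNN2, at 59.0%, was in a bin where 86.5% of the genes were called higher (median log2 fold change 1.14), and its rise ranked 46 of the 163 genes there. RHOB, at 57.3%, and TAGLN, at 58.6%, shared a bin where 75.9% were called higher (median 0.96). With each library's trend on GC content removed, the log2 fold change of TPM4 was 2.71 (limma, adjusted p = 5.08e-08) and that of CALD1 was -1.14 (limma, adjusted p = 2.09e-06). Those of RHOB and CNN2 shrank to 0.80 (limma, adjusted p = 8.94e-06) and 0.51 (limma, adjusted p = 7.47e-05), and TAGLN lost its call (0.35; limma, adjusted p = 0.182). The TPM4 to CALD1 ratio then differed by 3.85 on the log2 scale, near its uncorrected value of 4.09, whereas that of CNN2 to CALD1 fell to 1.66 from 3.17. The trend was estimated on a table of mostly changed genes, so the corrected value sets a gene against other changed genes of like GC content.

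**Figure D3:**
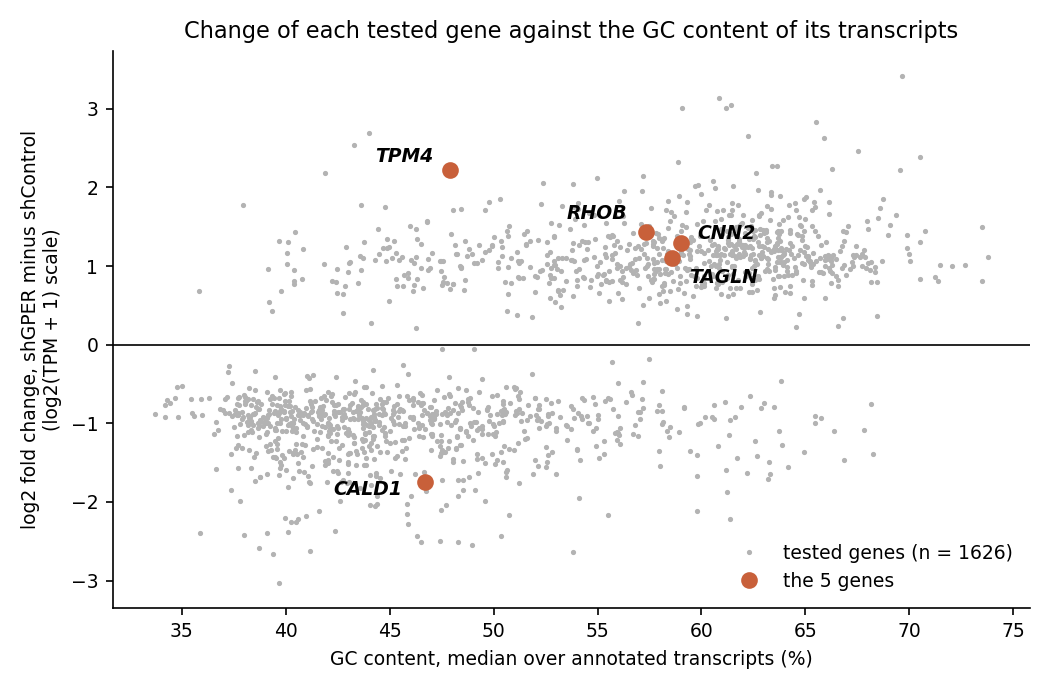
Log2 fold change (shGPER minus shControl, log2(TPM + 1) scale) of the 1626 tested genes with a GC value against the median GC content of their transcripts in percent, the 5 genes in orange. CNN2, RHOB and TAGLN lie among the many GC-rich genes that rose, CALD1 among the GC-poor genes that fell, and TPM4 stands above most genes of its GC content.

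The rest of the actin machinery was described from lists of 286 further genes, of which 35 were in the table and 32 were tested. Of these 32 genes 18 rose and 14 fell (median change 0.76 on the log2 scale). Of the 18, 6 (FLNC, TESK2, CDC42EP5, MYO1F, LIMS2 and TNS1) were under 1 TPM in every shControl library, which fixed their direction. FHL1, among the 14, was under 1 TPM in every shGPER library, which fixed its own. Both directions were thus common, as in the table as a whole. All 4 tested crosslinkers and bundlers of filaments rose, beside 47.8% called higher among all tested genes. They were SYNPO, the synaptopodin of stress fibres and dendritic spines, from 22.8 to 71.3 TPM, DBN1, the actin-bundling drebrin, from 23.4 to 64.3 TPM, MARCKS, a membrane-bound actin crosslinker, from 17.1 to 43.5 TPM, and FLNC, a filamin, from 0.723 to 3.38 TPM. FLNC was under 1 TPM in every shControl library, so it could be called in 1 direction only. SYNPO, DBN1 and FLNC have 60.9 to 62.3% GC, where most genes of the table rose, and MARCKS has 43.8%.

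Genes that start or turn over filaments are given next, beside 50.6% called lower among all tested genes. Of 5 tested nucleation genes 4 fell: ARPC5, a subunit of the Arp2/3 complex, from 142 to 52.1 TPM, WASF1 and ABI2, parts of the WAVE complex that activates Arp2/3, from 12.6 to 5.83 and from 32.0 to 17.6 TPM, and SPIRE1, a nucleator, from 7.05 to 3.38 TPM. The formin FMNL1 rose from 31.6 to 68.8 TPM, but its antisense gene FMNL1-AS1 was also in the table, and without knowledge of the strand setting their reads cannot be told apart. Of 3 tested severing and monomer-binding genes CORO1C, a coronin, fell from 58.4 to 17.0 TPM, CFL2, the muscle-type cofilin, fell from 18.5 to 9.60 TPM, and TESK2, a kinase that inactivates cofilin, rose from 0.583 to 1.91 TPM. TESK2 was under 1 TPM in every shControl library, so it was tested only because it was higher in shGPER. With the GC trend removed CFL2 turned to 0.04, and with the GC content of the longest transcript ABI2 lost its call (-0.0293; limma, adjusted p = 0.732).

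Regulators of myosin and partners of the small GTPases were split. DAPK3, a kinase that phosphorylates the myosin light chain, rose from 23.9 to 56.4 TPM, and CDC42BPB, the kinase MRCK-beta, fell to 18.9 TPM in shGPER. Among effectors of these GTPases PKN3, a kinase, and CDC42EP5 rose, to 14.6 and 1.72 TPM, while ANLN, the anillin of the cytokinetic ring, fell from 95.7 to 30.4 TPM and the formin DIAPH2 from 3.20 to 1.32 TPM. Unconventional myosins were also split, with MYO1E falling from 25.4 to 8.83 TPM, and MYO9B, which also inactivates such GTPases, rising from 24.0 to 37.6 TPM and MYO1F from 0.703 to 1.76 TPM. CDC42EP5 and MYO1F were under 1 TPM in every shControl library, so they were tested only because they were higher in shGPER. The membrane linker EPB41 fell from 6.26 to 3.40 TPM. With the GC trend removed MYO9B was called lower (-0.204), CDC42EP5, MYO1F, DIAPH2 and EPB41 changed sign, and DAPK3 and PKN3 lost their call. ANLN, CDC42BPB and MYO1E overlap other listed genes on the opposite strand.

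At focal adhesions, where stress fibres end, 5 of 7 tested genes rose and 2 fell, beside 47.8 and 50.6% of all tested genes. TRIP6, a LIM protein of the zyxin family, rose from 43.2 to 109 TPM, TNS2, a tensin, from 8.69 to 23.3 TPM and TGFB1I1, the paxillin relative Hic-5, from 13.8 to 29.8 TPM. LIMS2 and TNS1 rose from under 1 TPM in every shControl library to 1.34 and 1.86 TPM, and were tested only because they were higher in shGPER. PTK2, focal adhesion kinase, fell from 95.7 to 52.8 TPM and FHL1, a LIM protein, from 1.51 to 0.567 TPM. FHL1 was under 1 TPM in every shGPER library, so it was tested only because it was higher in shControl. With the GC trend removed LIMS2 changed sign and TGFB1I1, TNS1 and PTK2 lost their call, and with the GC content of the longest transcript FHL1 lost its own (-0.0767; limma, adjusted p = 0.717). TRIP6 and TNS2 kept direction and call under both GC settings. Of the list of SRF, its cofactors and targets, 9 of 32 genes were in the table and 8 were tested: 6 rose (TPM4, CNN2, TPM2, TAGLN, TGFB1I1 and the immediate early gene FOS, from 2.36 to 5.93 TPM) and 2 fell (CALD1 and FHL1). SRF itself, MRTFA, MRTFB and MYOCD were not analysed here, and 4 of the 8 tested genes are those described above, so the list is not independent of them. The counts of this list are beside 47.8% called higher and 50.6% called lower among all tested genes. The filter fixed the direction of TAGLN and FHL1. With the GC trend removed FOS and TAGLN lost their call too.

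**Figure D4:**
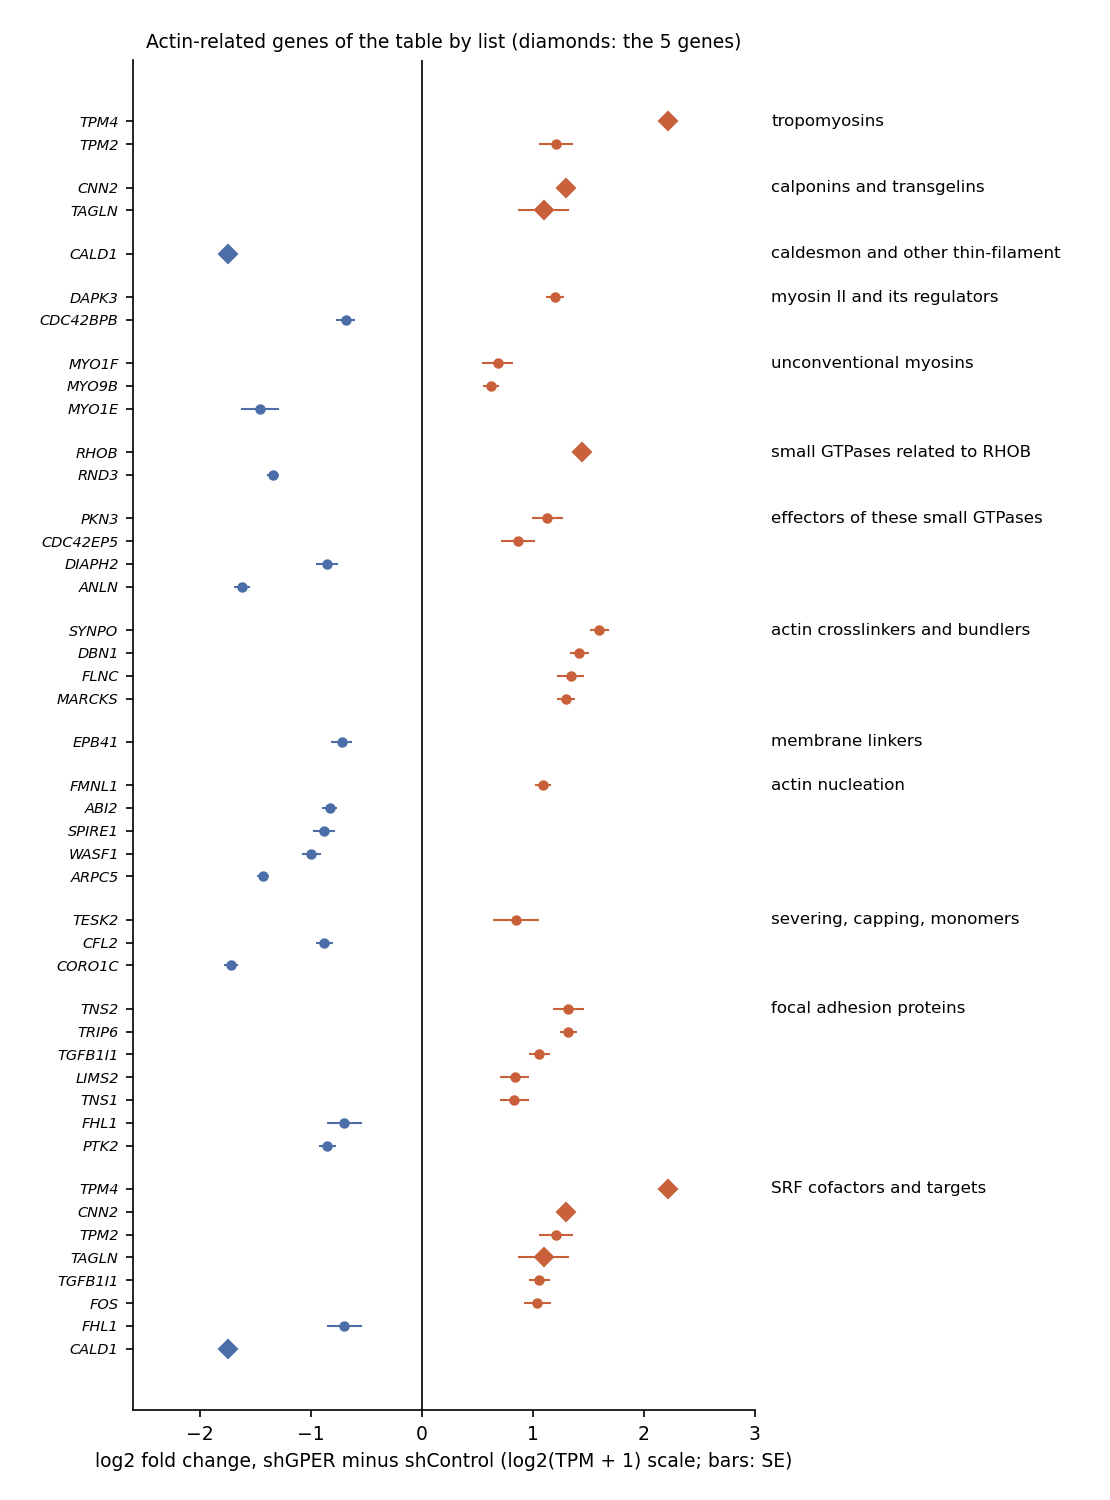
Log2 fold change with its SE (shGPER minus shControl, log2(TPM + 1) scale) for the tested genes of each actin-related list, diamonds marking TPM4, CNN2, CALD1, TAGLN and RHOB and orange and blue marking rises and falls. The 4 crosslinkers and bundlers all lie to the right of 0, 4 of the 5 nucleation genes lie to the left, and TPM4 lies farthest to the right; a gene of 2 lists is drawn in each.

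Few markers of contractile cell types were listed, and those of smooth muscle and pericytes were at low levels. The other smooth muscle and pericyte markers were not analysed here. Of 12 smooth muscle markers 1 was in the table: ACTA2, smooth muscle actin, at 0.37, 0.17 and 0.23 TPM in shControl and 0.57, 1.02 and 1.22 TPM in shGPER, below the level for testing and overlapped by STAMBPL1 on the opposite strand. Of 6 pericyte markers NOTCH3 was listed, at 0.35 to 0.42 and at 1.38 to 2.61 TPM, and it lost its call with the GC trend removed (0.296; limma, adjusted p = 0.0778). NOTCH3 was under 1 TPM in every shControl library, so it was tested only because it was higher in shGPER. The 5 listed fibroblast markers of 10 summed to 7.04 to 9.92 TPM in shControl and to 31.9 to 33.3 TPM in shGPER, nearly all of the difference being COL1A1 (2.83 and 29.4 TPM), while DCN and LUM fell to 49.6 and 47.6% of their control means and turned to 0.22 and 0.23 on the log2 scale with the GC trend removed. PDGFRA was at most 0.30 TPM in any library. The part of such cells in the levels of the 5 genes was not tested. Of 26 epithelial and gastric markers 3 were listed: CDH1, E-cadherin, at 0.533 and 0.233 TPM, the intestinal factor CDX2 at 0.30 to 0.47 and at 0.82 to 1.39 TPM, and TFF1, a gastric trefoil peptide, which fell from 5.10 to 1.80 TPM. CDH1 was thus close to 0 in both groups, and the other 23 markers of that list were not analysed here, so the labelled cell type could not be checked further.

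The genes most alike in pattern were found by centring each gene on its own shControl mean and taking the root mean square difference over the 6 libraries, among 1454 tested protein-coding genes. For CALD1 they were ABHD10, CORO1C and IFT20 (differences of 0.05 on the log2 scale), and CORO1C, the coronin named above, is itself an actin-binding protein. For RHOB they were IGFBP4, FOXL2 and DBN1 (0.03 to 0.04), and for CNN2 they were BTG2, VAT1 and PPP1R18 (0.03 to 0.04). For TPM4, whose change was matched less closely, they were SCG3, NALF2 and CHRNB2 (0.08 to 0.10). SCG3 and CHRNB2 are far less abundant, at means of 0.14 and 0.0833 TPM in shControl and 4.19 and 3.79 TPM in shGPER. Their rise as a ratio of TPM was thus far larger than that of TPM4, and they match it only on log2(TPM + 1). Both were tested only because they were higher in shGPER. For TAGLN they were AMT, ATG2A and ABHD16B, at 0.14 to 0.18. ABHD16B, at means of 0.207 TPM in shControl and 1.89 TPM in shGPER, was likewise tested only because it was higher in shGPER. The measure rests on 6 libraries in 2 groups and mostly reflects the size of the change.

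**Figure D5:**
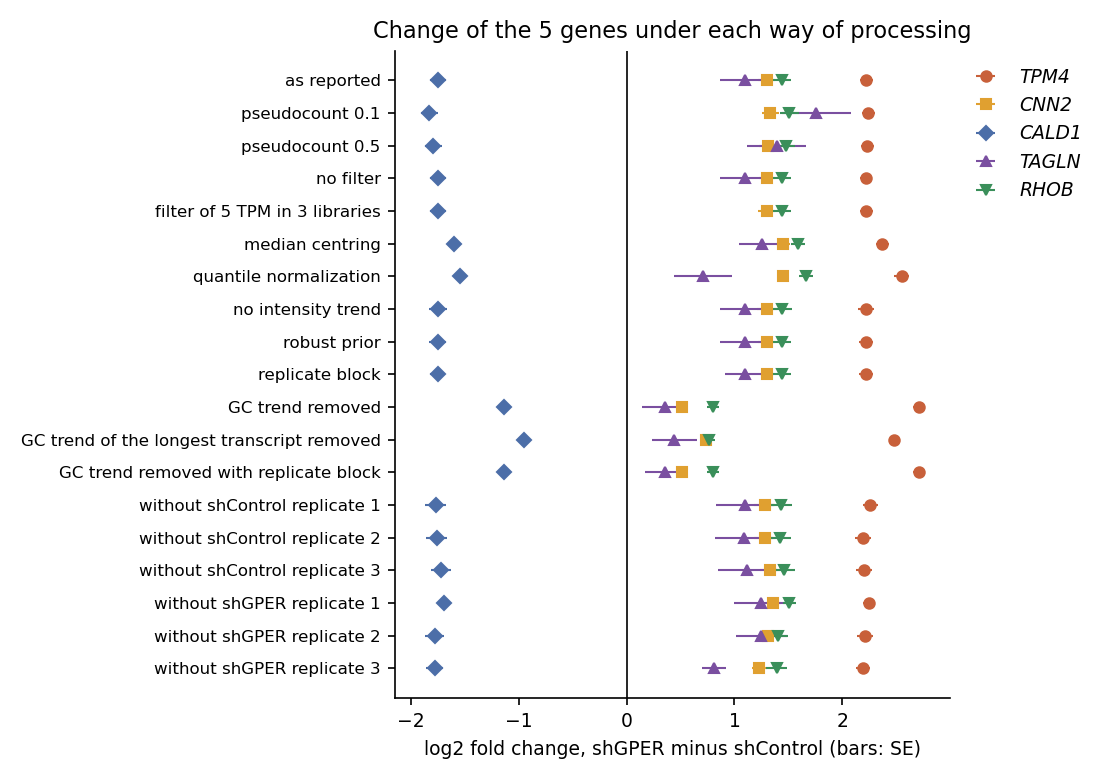
Log2 fold change (shGPER minus shControl) with its SE for the 5 genes under each way of processing, 1 row per setting. TPM4 stays right of 2 and CALD1 left of 0 in every row, while CNN2, RHOB and TAGLN lie closest to 0 in the rows without the GC trend.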

How the data were processed

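RNA-seq libraries of SNU668 cells (3 shControl, 3 shGPER, grouped by the titles in the labels) were prepared by a stranded mRNA ligation method from total RNA, per the labels' protocols. The authors deposited TPM per gene, 1 table per library with the same 2128 genes. Per the submitters' processing notes, hg38 was the build and RSEM, HISAT2 and fastp were used, with no version or settings stated, and the sources used here do not give the strand setting of the counting. TPM keep no depth, so counting error is unknown.

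The whole table was fitted as log2(TPM + 1) in limma 3.58.1 (R 4.3.3; intensity trend in the prior, no covariate) on the 1651 genes with at least 1 TPM in at least 3 libraries. Two-sided p-values were adjusted over all tested genes (Benjamini-Hochberg; threshold 0.05). This scale understates the change of low genes. The fit was checked on simulated data in which most genes were left unchanged. That differs from this table, so the check does not cover a table of mostly changed genes. Ratios were taken on TPM without a pseudocount and tested by exact permutation over libraries. Positions, transcripts and GC content are from GENCODE release 29 (GRCh38) and promoters from RefSeq. For the GC trend, the deviation of a library from the mean of each gene was fitted by a natural cubic spline (3 degrees of freedom).

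The members and lists were chosen with earlier results of these data known. Some genes are not reported here and were left out of the lists. Genes named are the 5 members, GPER1, up to 6 tested genes with the smallest p from each list, and the 3 genes most alike to each member. FHL1, FBLIM1, DCTN4, SEPTIN11 and genes below the level for testing were named after their values were seen. Alternatives were pseudocounts of 0.1 and 0.5 (1 for the ratios), no filter or 5 TPM, quantile normalization, median centring, a prior that was robust or had no trend, a replicate block, removal of the GC trend and leaving out each library in turn.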

Additional observations from a re-analysis of the deposited data

How the results depend on the processing

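Of 89 values of the 5 genes under the alternatives, 86 kept their direction and call, and 3 lost the call, all of TAGLN without the GC trend (0.354, also with the replicate block, and 0.444 with the GC content of the longest transcript). TAGLN could not be fitted under the 5 TPM filter. Leaving out each library in turn gave 2.19 to 2.26 for TPM4, 1.23 to 1.36 for CNN2, -1.78 to -1.69 for CALD1, 0.813 to 1.25 for TAGLN and 1.39 to 1.51 for RHOB, and 1607 to 1617 called genes in the table.

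Without the GC trend 1018 genes were called (512 higher, 506 lower), 1011 with the longest transcript and 991 with the replicate block added, against 1625. Of the actin-related genes, here with the 5 members included, 12, 14 and 11 were then called higher, against 22. Called lower were 12 in each of these GC settings, against 15. Under the 5 TPM filter, where fewer genes were tested, 14 were called higher and 13 lower. The log2 difference of TPM4 to CALD1 was 3.97 with a pseudocount of 1, 3.85 without the GC trend and 3.43 with the longest transcript. In the same order it was 3.05, 1.66 and 1.69 for CNN2 to CALD1, 3.19, 1.94 and 1.71 for RHOB to CALD1, and 2.86, 1.50 and 1.39 for TAGLN to CALD1. For TPM4 to CNN2 it was 2.20 and 1.74 without the GC trend by either transcript choice. Of 954 values of 54 other named genes 30 reversed, all without the GC trend, and 31 lost their call. The reversed log2 fold changes, by median transcript (the same with the block) and by longest transcript, were -0.204 and -0.261 for MYO9B, -0.0604 and -0.135 for MYO1F, 0.0552 and 0.0219 for DIAPH2, -0.251 and -0.34 for CDC42EP5, 0.0298 and 0.12 for EPB41, 0.0407 and 0.0268 for CFL2, -0.165 and -0.149 for LIMS2, 0.233 and 0.244 for LUM, 0.218 and 0.246 for DCN, and -0.033 and -0.0371 for ATG2A. The cause was not tested. The longest-transcript setting, and all alternatives for the actin-related counts and the other named genes, were chosen after seeing the data.

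The replicate numbers did not pair the libraries. Deviations of same-numbered libraries correlated at 0.03, -0.09 and 0.01 over 1651 genes, and not every library correlated best with its own number. The fit with a replicate block called 1622 genes (790 higher, 832 lower) and changed no call of the 5 genes. TPM carry no depth, so the precision of the low values of TAGLN cannot be given. Without a filter 2043 genes were called.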

Other observations

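The deposited tables carry gene ontology terms, and the terms that members share were looked at after values were seen. Of 7 tested genes with the term stress fiber 5 rose: TPM4, CNN2, TRIP6, SYNPO and FBLIM1, a filamin-binding LIM protein (7.79 ± 1.14 to 20.2 ± 1.91 TPM, SD, n = 3 each). The other two fell, SEPTIN11, a septin, from 25.3 to 13.7 TPM and DCTN4, a dynactin subunit, from 29.7 to 16.6 TPM. With the GC trend removed SEPTIN11 lost its call (-0.127), and with the GC content of the longest transcript DCTN4 did too (-0.0109; limma, adjusted p = 0.897). The term muscle contraction held 5 tested genes, of which 4 rose and CALD1 fell. Those that rose include a gene under 1 TPM in every shControl library, which fixed its direction. Both terms hold members picked with results known, and their counts are beside 47.8% called higher and 50.6% lower among all tested genes.

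Other shared terms are given by their counts. Actin filament binding, shared by TPM4 and TAGLN, held 23 tested genes, 15 higher and 8 lower (median log2 fold change 0.95), and actin filament organization, shared by TPM4 and RHOB, held 12, 8 higher and 4 lower (median 0.99). Actin binding, shared by TPM4, CNN2 and CALD1, held 32 tested genes, 19 higher and 13 lower (median log2 fold change 0.73). Focal adhesion, shared by TPM4, CNN2 and RHOB, held 41, 22 higher and 18 lower. Calmodulin binding, shared by CNN2 and CALD1, held 22, 15 higher and 7 lower (median 0.93), while cadherin binding, which the same pair shares, held 33, 16 higher and 17 lower (median -0.74). These counts are beside 47.8% higher and 50.6% lower in the table. They include the members, which were picked with results known. They also include genes under 1 TPM in every shControl library, such as TNS1, FLNC, MYO1F, LIMS2 and TAGLN, whose direction the filter fixed. For FHL1, in focal adhesion, it was fixed the other way. The counts therefore carry no test.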
